A study of Rattus norvegicus with 24 samples.

Results

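Control plantaris muscle of rats of the LRT line was compared with control plantaris of the HRT line, with 6 RNA-seq libraries a side. All 12 control libraries of the series' 24 were used, chosen by their line and treatment labels, and a positive change means a higher level in LRT. Of 31998 genes in the deposited table, 15456 had enough counts in these libraries to be tested, and they held 99.94% of the control counts. The study also has 12 libraries of overloaded plantaris, 6 per line, taken 14 days after the gastrocnemius and soleus had been removed on one side. All animals were females, 14 months old, of line generation 19, and the 2 control groups carry no other agent or allele in the labels. The labels give that surgery text for control samples as well, and they do not say whether a control muscle came from an unoperated animal or from the unoperated leg. Nor do they say that libraries of a group are separate animals, so p-values measure no more than the spread among these libraries, which may be in part technical.

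The plantaris is a small calf muscle rich in fast-twitch fibres that works beside the gastrocnemius and soleus in extending the ankle. LRT and HRT rats are lines bred in opposite directions for how much running capacity they gain from endurance training, LRT for a low and HRT for a high gain. A comparison of control muscle asks how far the lines differ in plantaris not labelled as overloaded. Whether it describes the lines before any surgery depends on the source of the control muscle, which is not stated. Whole muscle holds fibres together with vessel, connective tissue, nerve and immune cells, so in these bulk samples fewer cells of a type and less RNA per cell cannot be told apart.

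The deposited table gives Ensembl gene IDs without names. The RefSeq table of 47357 genes used here lists an Ensembl ID for 0 of them, so no ID could be paired with a name. Marker genes of muscle and of other cell types were therefore not analysed here, no gene sequence is printed, and genes are given by ID, at most 2 in each direction.

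Control totals ran from 26997674 to 33994732 estimated counts. LRT libraries averaged 31938649 ± 1354951 counts (SD, n = 6) and HRT libraries 29845221 ± 2376503, a difference that failed the exact permutation test (two-sided p = 0.0909, adjusted p = 0.182 over 4 library measures). RNA integrity numbers were 8.28 ± 0.147 in LRT and 8.27 ± 0.216 in HRT (exact permutation p = 1, adjusted p = 1). At least 1 count was found for 20884 ± 244 genes in LRT and 20492 ± 214 in HRT (exact permutation p = 0.0195, adjusted p = 0.0779), and this difference passed without LRT control replicate 1 (exact permutation, adjusted p = 0.0173). The 10 most abundant genes held 31.5% ± 1.24 of the counts in LRT and 31.1% ± 0.489 in HRT (exact permutation p = 0.472, adjusted p = 0.629).

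LRT control replicate 2 lay nearer to the HRT libraries than the other LRT libraries did. On the first principal component of the tested genes (19.9% of the variance) the 6 HRT libraries lay between −24.18 and −12.83, and 5 LRT libraries between 5.39 and 36.7, with LRT control replicate 2 at 0.70. The lines did not overlap on this axis. Each library was also placed against genes called without it. These passed the test between lines in the other 11 libraries and were also tested in the fit of all 12. HRT libraries were nearer to their own line's mean in 72.4% to 91.1% of such genes, against 57.2% to 64.5% of all tested genes. For 5 LRT libraries the share was 61.2% to 88.2%, against 54.6% to 62.5% of all tested genes. LRT control replicate 2 was nearer to its own line in 40.0% of such genes and in 43.7% of all tested genes. This library had a RIN of 8.1, the lowest of the LRT controls but within the HRT controls' range of 8 to 8.6. Its 10 most abundant genes held 29.9% of its counts, the lowest share of the 12. It also had the most genes with a count of the 12, at 21130. LRT control replicate 3 stood apart in another direction, at 37.9 on the second component (12.7% of the variance), where the other 11 libraries lay between −24.3 and 7.38. Results are therefore given with and without LRT control replicate 2.

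**Figure D1:**
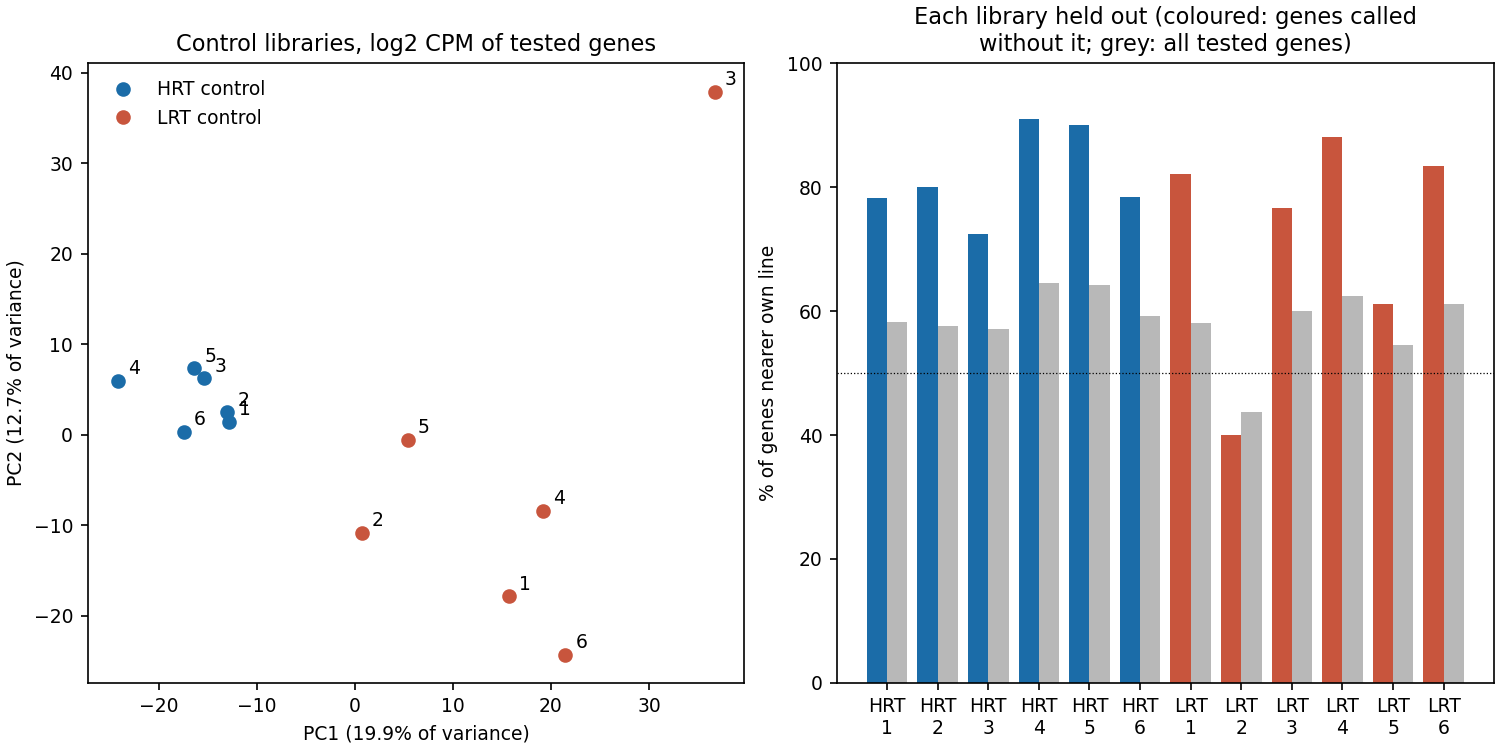
Left, the 12 control libraries on the first and second principal components of log2 CPM over 15456 genes, numbered by replicate. Right, the percentage of genes in which each library, left out of the test, was nearer to its own line's mean, for genes called without it (coloured bars) and for all tested genes (grey bars), with LRT control replicate 2 at 40.0% and the other libraries between 61.2% and 91.1% for called genes.

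In control muscle 491 genes passed the test between lines, with 289 at a higher and 202 at a lower level in LRT (edgeR quasi-likelihood test, Benjamini-Hochberg adjusted p under 0.05). These are 3.18% of the genes tested, 1.87% higher and 1.31% lower. The differences were small. The median change was 1.32-fold (0.40 on the log2 scale) among genes higher in LRT and 1.41-fold (0.49) among genes lower in LRT, and the middle 50 percent lay at 0.29 to 0.57 and at 0.34 to 0.73. Over all tested genes the median size of the change was 0.12 on the same scale. A change over 2-fold was called for 42 genes, 20 higher and 22 lower. The largest reached 4.856 on the log2 scale among genes higher in LRT and 3.165 among genes lower in LRT. The gene at 4.856 had a mean under 1 in log2 CPM and is not described by ID. At an adjusted p under 0.01 there were 49 genes higher and 23 lower. An unadjusted p under 0.05 was reached by 3256 genes, or 21.1% of those tested.

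Without LRT control replicate 2 the test called 1006 genes (6.46% of 15583), 570 higher and 436 lower. These included 483 of the 491 in the same direction, and 64 of the changes were over 2-fold. That library was picked out from these same counts for lying nearer to HRT. A higher count without it is therefore no further evidence of a line difference. No other single library raised the count, which fell to 212 without LRT control replicate 4 and to 216 without HRT control replicate 4. The other libraries whose absence lowered it by over 1.5 times were LRT control replicates 1 (267 genes) and 6 (296), and HRT control replicates 1 (298) and 5 (244). Of the 491 genes, 164 were called in all 12 fits that left out a library, 95 higher and 69 lower in LRT. Their median change was 0.52 on the log2 scale.

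**Figure D2:**
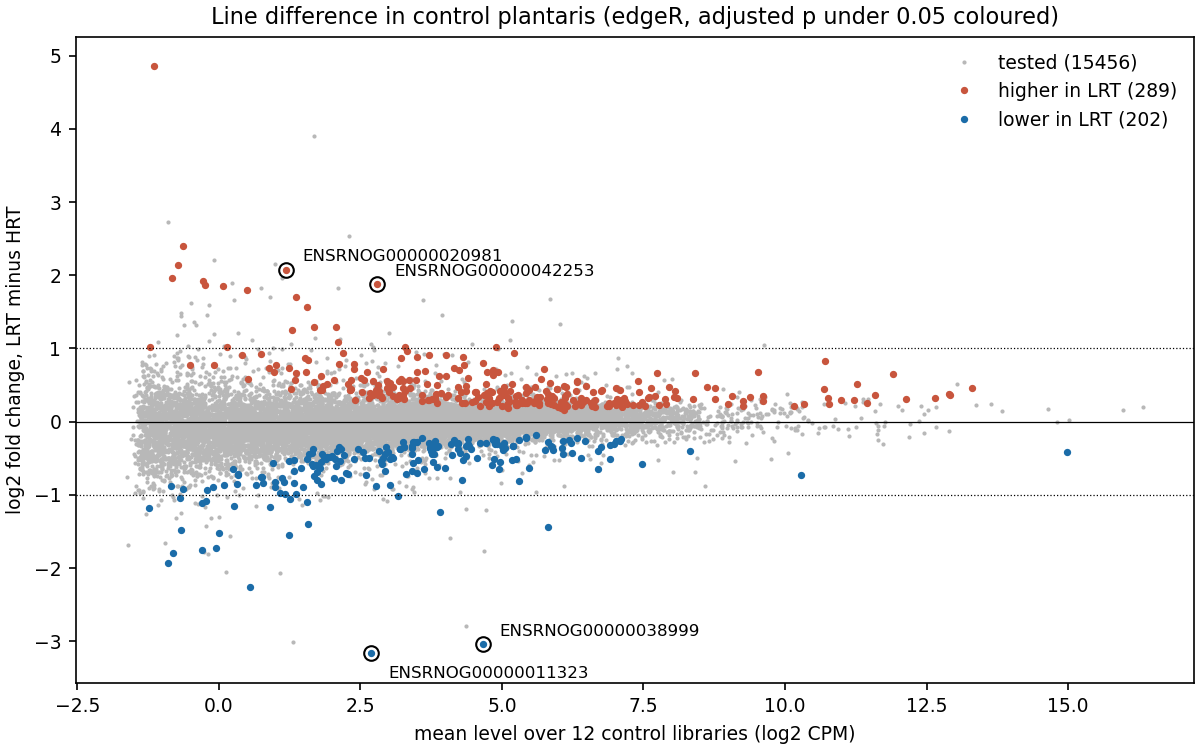
Log2 fold change (LRT minus HRT) of each of 15456 tested genes against its mean level over the 12 control libraries in log2 CPM. The 289 genes higher in LRT and the 202 lower are coloured, dotted lines mark a 2-fold change, and circles mark the 4 genes described by ID; most coloured points lie inside the dotted lines.

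ENSRNOG00000042253 had the lowest p-value of all tested genes. Its levels, in CPM (counts scaled to a common library total), were 10.5, 10.8, 11.2, 11.4, 11.3 and 9.90 in LRT replicates 1 to 6. In HRT replicates 1 to 6 they were 2.76, 3.16, 2.48, 3.15, 3.40 and 2.77 CPM. The lowest LRT library was far above the highest HRT library, and LRT control replicate 2 sat with the other LRT libraries. The means were 10.8 ± 0.578 and 2.95 ± 0.342 CPM (SD, n = 6), which edgeR fitted as a log2 fold change of 1.88 ± 0.0846 (SE; adjusted p = 6.79e-09). Its call held with each library left out.

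ENSRNOG00000020981 had the largest change among genes called higher in LRT at a mean level of 1 or more on the log2 CPM scale. LRT replicates 1 to 6 were at 2.50, 2.66, 7.29, 3.05, 2.27 and 3.52 CPM. HRT replicates 1 to 6 were at 0.103, 0.287, 1.56, 1.17, 0.731 and 1.12 CPM, of which the first rests on 3 counts. The lines did not overlap, LRT replicate 3 was more than 2 times the next LRT library, and HRT libraries spread more than 10 times from lowest to highest. The means were 3.55 ± 1.89 and 0.828 ± 0.559 CPM, which edgeR fitted as a log2 fold change of 2.07 ± 0.475 (SE; adjusted p = 0.0393). The call was lost in 8 of 12 fits with a library left out (edgeR adjusted p up to 0.0897) and with no count filter (adjusted p = 0.0805).

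ENSRNOG00000011323 had the largest change among genes called lower in LRT. It was at 14.3, 11.1, 6.82, 15.4, 5.43 and 16.3 CPM in HRT replicates 1 to 6. In LRT replicates 1 to 6 it was at 1.32, 1.39, 0.126, 2.50, 1.32 and 1.06 CPM, with 4 counts in LRT replicate 3. Every LRT library lay below every HRT library. The means were 1.29 ± 0.758 in LRT and 11.6 ± 4.57 CPM in HRT, and edgeR's log2 fold change was −3.16 ± 0.452 (adjusted p = 0.00683). The call held with each library left out, at log2 fold changes of −3.46 to −2.92.

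ENSRNOG00000038999 was at 48.9, 42.8, 9.45, 52.4, 65.2 and 51.4 CPM in HRT replicates 1 to 6 and at 4.98, 4.78, 7.73, 5.61, 5.97 and 3.65 CPM in LRT. HRT replicate 3 stood well below the other HRT libraries and little above LRT replicate 3, but the lines still did not overlap. Means of 5.45 ± 1.37 CPM in LRT and 45.0 ± 18.9 in HRT gave an edgeR log2 fold change of −3.04 ± 0.402 (adjusted p = 0.00584). This call also held with each library left out. Outside these fits it was lost with the replicate number as a block (log2 fold change −2.92, adjusted p = 0.0703).

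**Figure D3:**
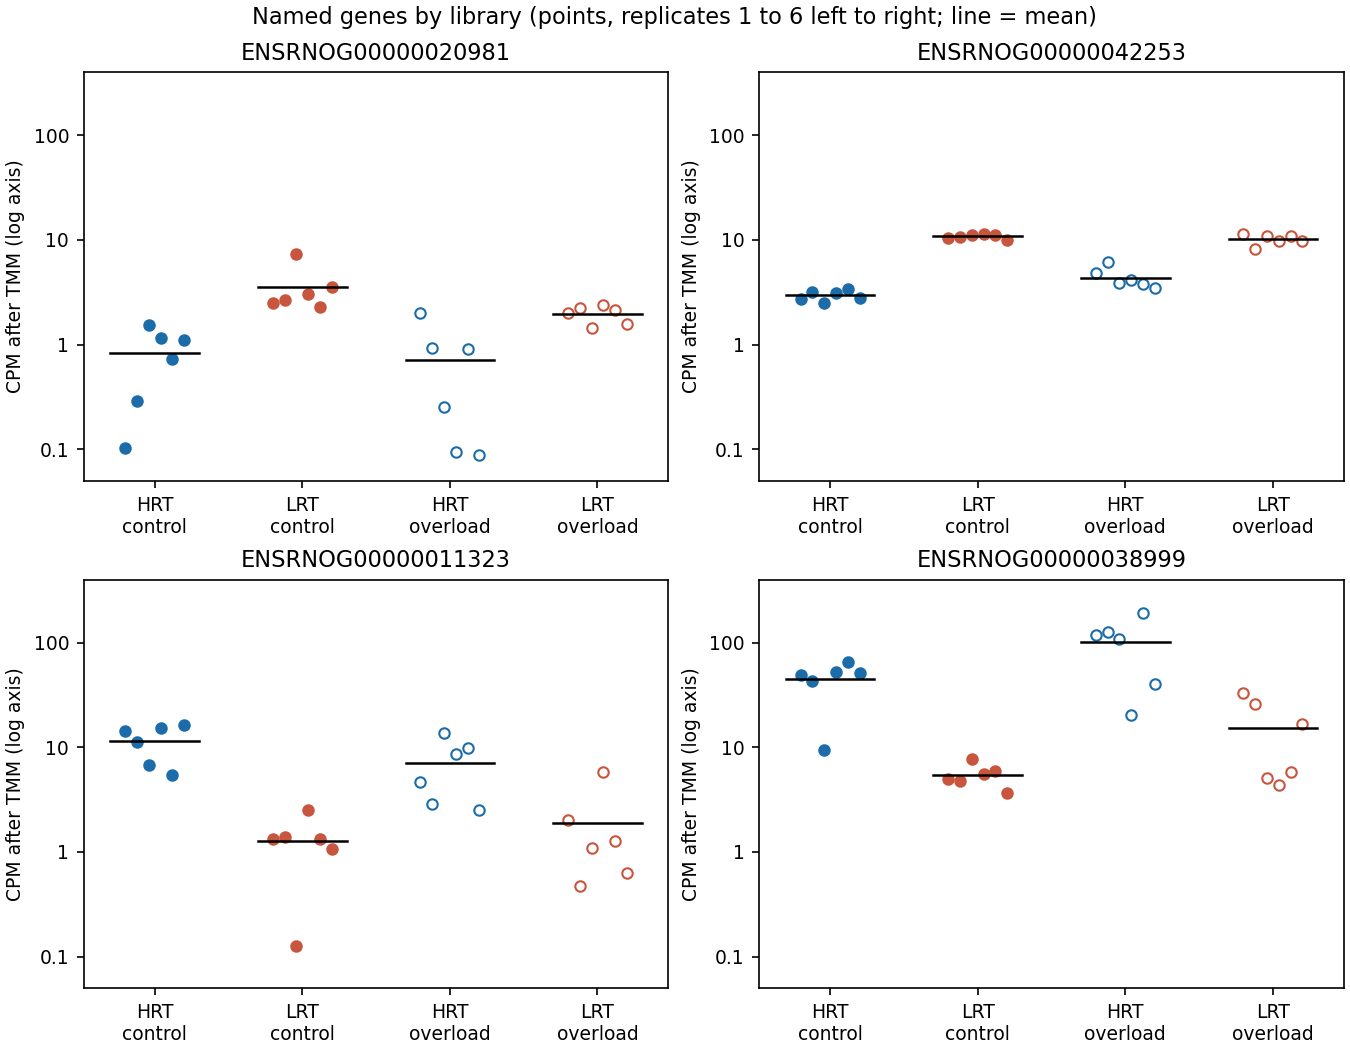
CPM (log axis) of the 4 genes described by ID in each library, replicates 1 to 6 from left to right within a group, with control libraries filled, overloaded libraries open, HRT blue, LRT red, and a bar at the mean. In control muscle no gene's lines overlap, and in overloaded muscle ENSRNOG00000042253 alone of the 4 stays separate.

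The lines were also compared library by library, without a model. In 419 genes, 2.71% of those tested, all 6 libraries of a line lay above all 6 of the other, 247 with LRT above and 172 with LRT below. Of the 491 called genes 266 (54.2%) were separated in this way, 154 higher and 112 lower in LRT. Among the other 225 called genes, leaving out LRT control replicate 2 separated the lines in 81 (36.0%) and leaving out LRT control replicate 5 in 51 (22.7%). Leaving out an HRT library did so in 8 to 36 genes, and a gene can be counted for more than 1 library. Without LRT control replicate 2 the lines were separate in 892 genes (5.72%), a comparison of 5 against 6 libraries, which is easier to pass. It also leaves out the LRT library picked for lying nearer to HRT.

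Genes higher in LRT lay more in the abundant classes than genes lower in LRT, with no test of this difference. The classes were counted with a single scaling of the libraries, and the balance of higher and lower genes depended on scaling, as given below. Tested genes were split into 5 equal classes by mean level. In the top class, from a mean of 35.2 CPM upward, 129 genes were higher and 38 lower in LRT, and 5.40% of the class was called. In the bottom class, up to a mean of 1.52 CPM, 14 were higher and 21 lower, and 1.13% was called. The median size of a called change fell from 1.10 on the log2 scale in the bottom class to 0.32 in the top class. Of the 42 changes over 2-fold, 22 were in the bottom class. Among the 100 most abundant genes 17 were higher and 2 lower in LRT. The count of 17 turned on single libraries and on the model. It was 28 without LRT control replicate 2, when the top class had 294 higher and 82 lower. It fell to 3 without LRT control replicate 4, to 4 without HRT control replicate 4 or LRT control replicate 1, to 6 without HRT control replicate 1 or 5, to 8 without HRT control replicate 3 and to 9 without LRT control replicate 6. The DESeq2 Wald test called 34 of these abundant genes higher, a replicate block 3 and a model of all 24 libraries 2. Genes called lower among them numbered 1 to 3 throughout.

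In bulk terms, the 289 genes higher in LRT took up 8.96% ± 0.592 (SD, n = 6) of the counts in LRT libraries and 7.25% ± 0.276 in HRT. The 202 genes lower in LRT took up 3.17% ± 0.513 in LRT and 4.47% ± 0.370 in HRT. These shares describe the genes the test had picked and are no further evidence of their direction.

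The balance of higher and lower genes depended on how libraries were scaled. The scaling used here, the trimmed mean of M values (TMM), gave factors of 1.00 to 1.04 in HRT libraries and of 0.933 to 1.02 in LRT, where the highest was LRT control replicate 2. Scaled by their totals alone, the libraries gave 153 genes higher and 561 lower in LRT, and 21.4% of the calls were higher, against 58.9% with TMM. The median tested gene then lay at −0.08 on the log2 scale, against −0.01. Even so, 352 of the 491 genes were called in the same direction. Among the 100 most abundant genes 10 were higher and 3 lower under this scaling. Scaling by DESeq2's size factors gave 298 and 194 genes in all, close to TMM. The 4 genes described by ID kept their direction and their call under both scalings.

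**Figure D4:**
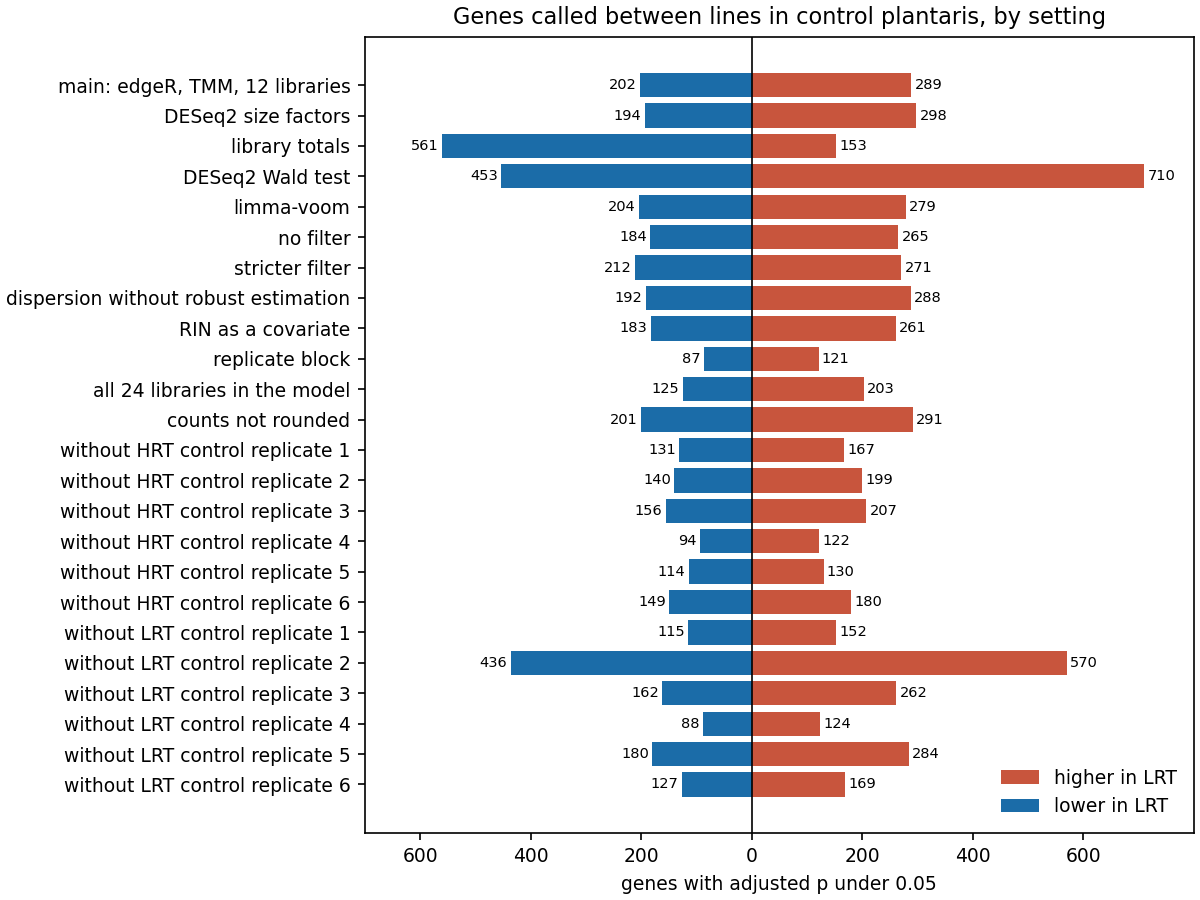
Number of genes called higher (right, red) and lower (left, blue) in LRT control muscle under each setting of the test, with the counts printed beside the bars. The split turns from 289 higher and 202 lower to 153 and 561 when libraries are scaled by totals alone, and both sides grow, to 570 and 436, without LRT control replicate 2.

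Taken over all 6 libraries of a line, LRT libraries varied more among themselves than HRT libraries. Over all tested genes the median SD of log2 CPM within a line was 0.183 in LRT and 0.157 in HRT, and it was larger in LRT for 63.0% of genes. For the 491 called genes these values were 0.168, 0.138 and 66.8%. This difference in spread was not tested, and the SDs were not computed without LRT control replicate 2. Each library's median distance from the mean of its line's other libraries was also taken, on the log2 scale. It was largest in LRT control replicates 3 (0.181), 6 (0.153) and 2 (0.152). In LRT control replicates 1, 4 and 5 it was 0.122 to 0.128, within the range of HRT libraries (0.1109 to 0.1315).

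The same contrast was then read in overloaded muscle, in 12 libraries that the control comparison does not use, scaled and fitted on their own. Whether these come from the same animals as the controls is not stated. There 115 of 16257 genes (0.707%) passed, 82 of them higher and 33 lower in LRT (edgeR adjusted p under 0.05), and 2727 had an unadjusted p under 0.05. Of the 491 control calls, 22 were called in the same direction, 18 higher and 4 lower in LRT. Counting also a gene called in the opposite direction, the shared genes were 4.68% of the control calls and 20% of the overload calls. For 185 of the 491 (37.7%) the overload difference had an unadjusted p under 0.05 in the same direction, against 11.6% of all genes tested in both. The lines were separate library by library in the same direction for 33 of the 491, where 1.6% of all genes tested in overload were separate in either direction. Without LRT control replicate 2, 28 of 1006 control calls were shared in direction. RNA integrity numbers averaged higher in overloaded HRT than in overloaded LRT libraries, with overlap, a difference that was not tested. With RIN as a covariate in both fits, 14 genes were shared in direction. The count of 22 turned on single libraries: it was 44 without HRT overload replicate 3, 14 without LRT control replicate 4 or HRT overload replicate 2, and 13 without HRT overload replicate 1, HRT overload replicate 5 or LRT overload replicate 3.

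Genes with the largest control differences most often had the same sign in overloaded muscle. Of the 42 control calls over 2-fold, 40 had the same sign there, with a median of 0.93 on the log2 scale in the control direction, against 1.5 in control muscle, and 12 were called. Of the 300 calls with a log2 change up to 0.5, 235 (78.3%) had the same sign, at a median of 0.14 against 0.33 in control muscle. Between these, 111 of 149 (74.5%) had the same sign. Over all 15311 genes tested in both states the sign was the same for 57.6%. Control values chose the called genes, so a smaller median in other libraries is not a measured loss of the difference.

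Genes higher in LRT control muscle had the same sign after overload in a larger share than genes lower in it, a difference that was not tested. Of the 289 higher genes 259 (89.6%) were also higher in LRT after overload, with a median log2 difference of 0.23, against 59.4% of all tested genes that were on the higher side in control. Of the 202 lower genes 127 (62.9%) were lower after overload, at a median of −0.09, against 55.9%. The order of these shares turned with the scaling. Under both scalings, though, the higher genes lay further above their background share than the lower genes did. With totals alone, 111 of 153 higher genes (72.6%, against 33.1% of all) and 491 of 561 lower genes (87.5%, against 80.2%) kept their sign, and the median tested gene was at −0.15 in overloaded muscle. Without LRT control replicate 2 the shares were 84.7% of 570 higher genes, against 59.5% of all, and 57.6% of 432 lower genes, against 55.9% of all, so the lower genes were then near the background.

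**Figure D5:**
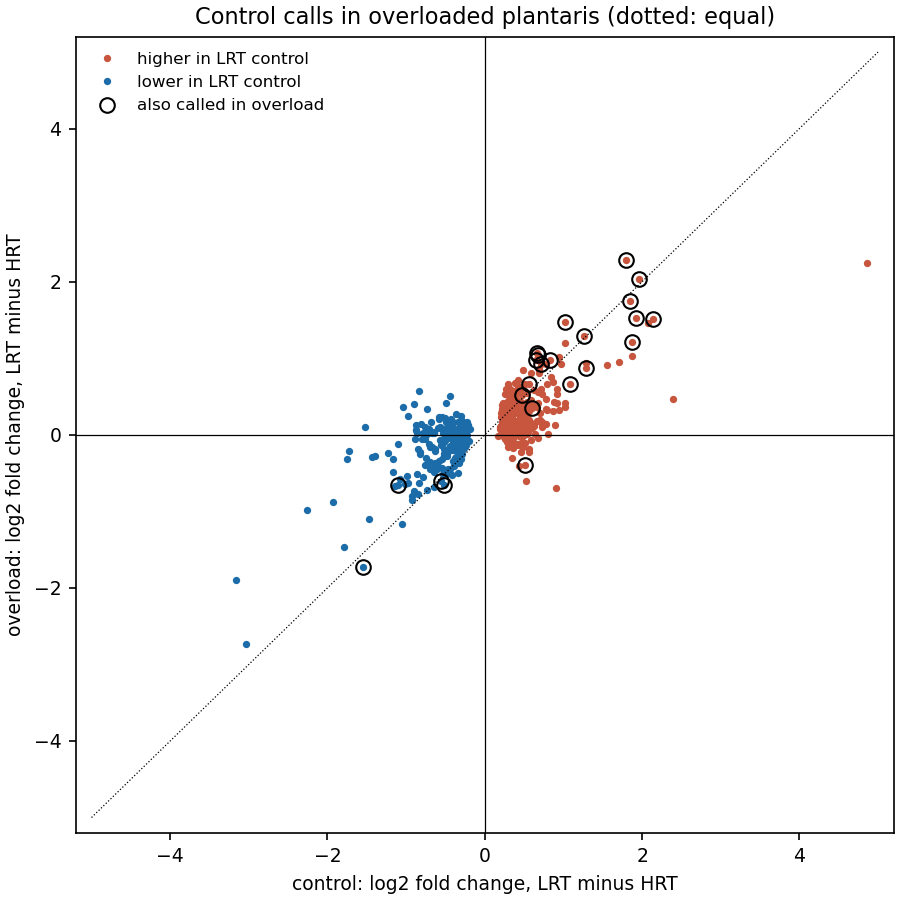
Line difference (log2 fold change, LRT minus HRT) in overloaded muscle against that in control muscle for the 491 genes called in control muscle, with genes also called in overload circled and equal differences on the dotted line. Of 42 genes beyond 2-fold in control muscle 40 lie on the same side of 0 in both states, and most circled points are genes higher in LRT.

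The genes described by ID kept their direction after overload with different firmness. ENSRNOG00000042253 was at 11.5, 8.17, 10.99, 9.74, 10.9 and 9.71 CPM in overloaded LRT replicates 1 to 6, and at 4.85, 6.12, 3.86, 4.11, 3.80 and 3.51 CPM in HRT. The lines were again separate (log2 fold change 1.22 ± 0.137, edgeR adjusted p = 0.00291). ENSRNOG00000038999 averaged 15.1 ± 12.2 CPM in LRT and 100.9 ± 62.5 in HRT, where HRT replicate 4, at 20.4 CPM, lay below 2 LRT libraries (log2 fold change −2.73 ± 0.626, adjusted p = 0.0704). ENSRNOG00000011323 averaged 1.88 ± 1.995 CPM in LRT and 6.99 ± 4.40 in HRT, with overlap (log2 fold change −1.89 ± 0.597, adjusted p = 0.172). ENSRNOG00000020981 averaged 1.98 ± 0.381 CPM in LRT and 0.713 ± 0.738 in HRT, with overlap (log2 fold change 1.45 ± 0.545, adjusted p = 0.230). The last 3 genes did not pass the test in overloaded muscle. ENSRNOG00000038999 passed without HRT overload replicate 4 (edgeR adjusted p = 0.0352), and ENSRNOG00000011323 without LRT overload replicate 4 (edgeR adjusted p = 0.0458). With all overloaded libraries kept, ENSRNOG00000038999 also passed DESeq2's Wald test (adjusted p = 0.00221). It passed in a model of all 24 libraries too (edgeR adjusted p = 0.0123), but not in the 9 other settings.

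The change of the line difference with overload was tested in a model of all 24 libraries, which shares the control libraries with the comparison above. ENSRNOG00000042253 had the smallest p of the 4, with a smaller line difference after overload (interaction −0.69 on the log2 scale, edgeR adjusted p = 0.0908). For ENSRNOG00000020981, ENSRNOG00000011323 and ENSRNOG00000038999 the interaction was −0.66, 1.25 and 0.28 (edgeR adjusted p = 0.727, 0.485 and 0.898). None of the 4 passed. Over all 16661 genes in that model 8 passed, 5 of them among the 491 control calls, and 2265 had an unadjusted p under 0.05, 196 of them among the 491. Since control values chose the 491 genes and also enter this test, these counts are not independent of the choice.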

How the data were processed

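Per the labels' protocols, total RNA of whole homogenised plantaris went into Illumina TruSeq library preparation. Values in the deposited table are the authors' estimated counts for each gene, without normalization. Salmon 0.9.1 is named in the submitters' processing notes, as are rn6 and Rnor_6.0 as builds. Annotation, settings and the handling of reads shared by similar genes were not given in the sources used here. Values of near-identical genes are therefore uncertain.

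Estimated counts were rounded. In R 4.3.3 with edgeR 4.0.16, filterByExpr (minimum count 10, minimum total 15) on the 12 control libraries kept 15456 genes and left out 16542. Counts were scaled by TMM and tested with the quasi-likelihood F-test (robust dispersion, Benjamini-Hochberg adjustment, threshold 0.05). CPM values are counts put on 1 library size with TMM factors, computed separately for control and overloaded libraries. Standard errors are approximate, the size of the log2 fold change divided by the square root of F. Principal components and spreads used log2 CPM with a prior count of 2. The 12 control libraries were fitted alone so that their dispersion is their own: over 15311 genes the median SD of log2 CPM was 0.156 in control and 0.235 in overload in HRT, and 0.181 and 0.201 in LRT. That this gives more calls than a model of all 24 was known beforehand. The comparison, the lists and the rule for named genes were chosen with earlier results of these data known. That rule took, with no symbols matched, the 2 IDs with the largest change in each direction among called genes at a mean of 1 or more in log2 CPM. The 46 gene lists could not be tested, nor could neighbouring genes.

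No control libraries of the same line were duplicates (30 pairs within lines, lowest chi-square per degree of freedom 11.95). Pairs between lines were not checked. On counts simulated for the control comparison with 200 changed genes among 15316 tested, the model recovered 20% of genes changed 1.25-fold, 56% at 1.5-fold, 82% at 2-fold and 94% at 4-fold, with 5 unchanged genes called. Alternatives were DESeq2 1.42.0, limma-voom (limma 3.58.1), other scalings, filters and dispersions, the replicate number as a block, RIN as a covariate, a model of all 24 libraries, unrounded counts, and each library left out. Exact permutation tests were two-sided, in scipy 1.17.1, and plots were drawn with matplotlib 3.10.9.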

Additional observations from a re-analysis of the deposited data

Results flagged for a closer look

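Within the groups of 6 libraries, 34 sets of values were checked for a library far from the others, where chance marks about 1 set in 20, and 3 were found. ENSRNOG00000020981 was at 7.29 CPM in LRT control replicate 3, far above the other LRT controls, and without that library its log2 fold change was 1.73 (edgeR adjusted p = 0.0519). ENSRNOG00000011323 was at 5.80 CPM in LRT overload replicate 4, far above the other overloaded LRT libraries, and without that library its overload log2 fold change was −2.67 (adjusted p = 0.0458). The TMM factor of HRT control replicate 6 was 1.00, below the other HRT controls at 1.03 to 1.04. Causes were not tested.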

How the results depend on the processing

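The count of 491 genes stayed within 1.5 times under 9 of 11 other settings; DESeq2's Wald test gave 1163 and a replicate block (the replicate number as a term) 208. The labels do not say whether a number marks a shared animal or day. Deviations of same-numbered libraries correlated between lines at −0.10 to 0.03, and 0 of 12 libraries correlated best with its own number. Weak correlations among 6 libraries a side cannot tell whether numbers mark a shared day or batch, so the block is given as an alternative only. With the block 27 genes differed over 2-fold, against 42, and with a stricter filter, under which fewer low genes were tested, 23. A model of all 24 libraries gave 328 genes, 260 of them shared with the 491 in direction. In all, 107 of the 491 were called in all 11 other settings and 90 in these and all fits without a library. Leaving out a library gave 212 to 1006 genes, 30 to 64 over 2-fold, and 482 to 892 with separate lines. The 22 genes shared with overloaded muscle became 110 with the DESeq2 Wald test, 14 with RIN as a covariate, 53 with all 24 libraries in the model, and 13 to 44 with a library left out. With a library left out, the line difference in RIN was −0.0367 to 0.0833 and that in genes with a count 342.6 to 478.2. Causes were not tested. No result described by ID reversed in the alternatives run. Genes changed 1.25-fold were mostly missed in simulation at this depth and number of libraries. The simulation drew each gene independently and held no library lying apart as LRT control replicate 2 does. Its recovery rates may therefore not carry over to these data. Gene list counts and neighbouring genes were not run, since no ID could be matched.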
